A study of Mus musculus with 14 samples.

Results

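The comparison set out here is between mouse CD4 T cells cultured toward follicular helper T cells with added TGF-β, a group named Tfh5, and CD4 T cells cultured toward Th1 cells. Its members were chosen by the column names of the count table, Tfh5 replicates 1 to 5 and Th1 replicates 1 to 5, which are 10 of the 14 samples of the series. All cells were naive CD4 T cells of C57BL/6 mice, activated for 3.5 days on plate-bound antibodies against CD3 and CD28. Tfh5 cultures held 5 ng/ml TGF-β, while the third group of the series, TfhA (4 samples), had the same kind of culture with TGF-β blocked by an antibody and is given here only beside the others. The sources used here do not give the remaining additions to the Th1 and Tfh5 cultures, so the part of TGF-β and the part of any other difference between these cultures cannot be told apart in this comparison. Cells were sorted by flow cytometry straight into lysis reagent, and libraries were made from 100 ng of RNA. Nothing in the labels says whether the replicates were separate mice or separate cultures, and the p-values therefore measure only the spread between these samples.

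Th1 cells are the helper subset that makes interferon-γ. The transcription factor T-bet (gene Tbx21) drives their program, interleukin-12 acting through STAT4 supports it, and Blimp-1 (Prdm1) is induced in effector cells that leave the follicular path. Follicular helper cells help B cells in germinal centres, depend on Bcl6, carry the chemokine receptor CXCR5 and secrete interleukin-21. TGF-β signals through a pair of serine/threonine kinase receptors to SMAD2 and SMAD3. Together with inflammatory cytokines it can steer CD4 cells to the Th17 program and interleukin-17, and without them to Foxp3. In mice it has also been linked to c-Maf (Maf), a factor shared by follicular helper and Th17 cells.

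Library totals ran from 9766313 to 13316633 counts in Tfh5 and from 13390058 to 16108059 in Th1, with no overlap (exact permutation test, two-sided, p = 0.00794, adjusted p = 0.0106 over 4 library measures). The mitochondrial share of counts was 8.03% ± 0.594 (SD, n = 5) in Tfh5 and 5.91% ± 0.871 in Th1, again without overlap (exact permutation test, p = 0.00794, adjusted p = 0.0106). Correlations of log2 expression between libraries were 0.970 to 0.984 within Tfh5, 0.985 to 0.991 within Th1 and 0.834 to 0.856 between the groups. No pair of libraries looked like a copy, since a chi-square test of the counts of pairs within a group gave values of 4.15 to 30.6 for each degree of freedom. Tfh5 replicate 1 and Th1 replicate 1 stood farthest from their groups by that measure. Th1 replicate 2 held small amounts of transcripts typical of Tfh5: for the 10 genes with the highest fold changes its median level was 0.27% of the Tfh5 mean, against 0% to 0.0116% in the other Th1 libraries. In every library the 5 markers chosen for this comparison, Maf, Tbx21, Ifng, Prdm1 and Il17f, went with the label. The groups did not overlap in any of them, as was so for 50.2% of all genes tested below. The markers were chosen with earlier results of these data known, so they describe the samples and are no check of the labels.

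Levels are given as CPM, the counts of a gene relative to the total of its library, scaled between libraries by edgeR's TMM factors, and the values of 5 libraries are listed in the order of replicates 1 to 5. Means carry the SD over n = 5 libraries (n = 4 for TfhA), log2 fold changes are Tfh5 minus Th1 with the SE of the fit, and adjusted p-values come from edgeR's two-sided quasi-likelihood test adjusted by Benjamini and Hochberg's method for the 13075 genes tested. Passing means an adjusted p under 0.05. Of these genes, 8440 passed (64.6%), 4119 of them higher in Tfh5 (31.5%) and 4321 lower (33%). A further limit of 2-fold left 1653 higher (12.6%) and 1994 lower (15.3%), and the 5 Tfh5 libraries did not overlap the 5 Th1 libraries for 6569 genes (50.2%). The median log2 fold change over all tested genes was -0.01. At 64-fold or more, 80 genes were higher and 139 lower. With differences this widespread, the count of a gene list is read beside those shares, and a single call carries less weight than its size. As these are bulk samples, fewer cells of a type and less RNA per cell cannot be told apart.

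**Figure D1:**
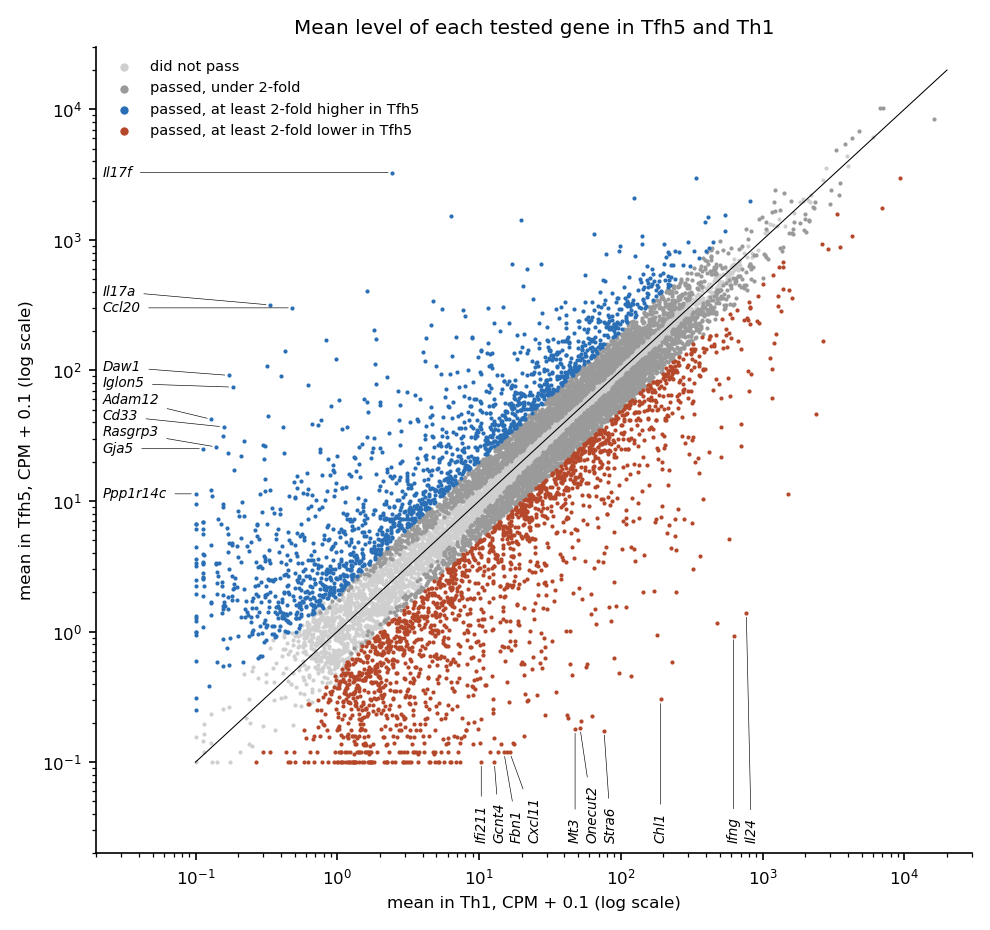
Mean level of each of the 13075 tested genes in Th1 (horizontal) and Tfh5 (vertical), both as CPM + 0.1 on log axes, with 1 point per gene and the diagonal marking equal levels. The 1653 genes at least 2-fold higher in Tfh5 and the 1994 at least 2-fold lower fan out on both sides, and the 10 genes with the highest and the 10 with the lowest fold changes are labelled.

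The regulators that define the subsets lay far apart. Maf (chr8:115703253-115706894, GRCm38.p6) stood at 15.2, 29.1, 17.8, 13.4 and 22.6 CPM in the Th1 libraries and at 1312, 1314, 1298, 1608 and 1561 CPM in the Tfh5 libraries. Every Tfh5 library was far above every Th1 library, a difference of 72.3-fold (log2 6.18 ± 0.17, edgeR adjusted p = 5.90e-20). Tbx21 (chr11:97098007-97115331) showed the opposite, with 305, 242, 230.5, 225 and 218 CPM in Th1 and 1.9, 2.24, 2.36, 1.33 and 1.64 CPM in Tfh5, which is 129-fold lower in Tfh5 (log2 -7.01 ± 0.15, edgeR adjusted p = 7.12e-21). Prdm1 (chr10:44437174-44528558) was close to the detection limit in Tfh5. Its Th1 libraries held 36.6, 46.5, 45.7, 43.6 and 37.4 CPM and its Tfh5 libraries 0, 0.102, 0.189, 0.285 and 0.0747 CPM, 304-fold lower (log2 -8.25 ± 0.28, edgeR adjusted p = 2.05e-18). TfhA lay between the groups for Tbx21 (61.6 ± 7.06 CPM) and Prdm1 (3.76 ± 0.971 CPM), but at 31.7 ± 3.03 CPM for Maf it was far nearer to Th1 than to Tfh5.

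Bcl6, Tcf7, Pou2af1, Tox2 and Lef1, factors known from follicular helper cells, were each higher in Tfh5. Bcl6, the repressor that follicular helper cells need, was 10.5, 17, 12.6, 11.7 and 9.82 CPM in Th1 and 79.1, 115, 106, 102 and 123 CPM in Tfh5 (8.53-fold, edgeR adjusted p = 3.55e-14). Tcf7, which encodes TCF-1 and acts upstream of Bcl6, was 152, 119.5, 121, 122 and 103 CPM in Th1 and 2024, 1948, 1991, 2274 and 2165 CPM in Tfh5 (16.8-fold, edgeR adjusted p = 2.33e-19). The gap was wider for Pou2af1, the coactivator OCA-B, with 0.561, 2.29, 2.27, 1.53 and 0.99 CPM in Th1 and 406, 416, 387, 420.1 and 406 CPM in Tfh5. That is 268-fold (log2 8.07 ± 0.23). Tox2, a factor linked to Bcl6 in these cells, was nearly silent in Th1 (0 to 0.139 CPM) and reached 17.7 to 30.2 CPM in Tfh5 (288-fold, log2 8.17 ± 0.34, and 625-fold with all libraries thinned to the smallest total). Lef1 differed least of these 5, at 262 ± 11 CPM in Th1 and 370.4 ± 44.8 CPM in Tfh5 (log2 0.50 ± 0.12, edgeR adjusted p = 9.61e-04).

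Rora and Ahr were higher as well. Rora, a nuclear receptor of the Th17 program, was 12.6, 17.8, 18.2, 22.4 and 18 CPM in Th1 and 28.3, 100.3, 77, 102 and 114 CPM in Tfh5. Its lowest Tfh5 value, in replicate 1, was well under the other 4 and still above every Th1 library (4.75-fold, edgeR adjusted p = 7.29e-09). Ahr, the aryl hydrocarbon receptor that Th17 cells express, was 20.3, 21.9, 19.96, 20.6 and 19 CPM in Th1 and 411, 438, 407, 463 and 512 CPM in Tfh5 (21.9-fold, log2 4.45 ± 0.11). Foxp3, the factor of regulatory T cells, did not pass. Its levels of 3.06, 2.7, 1.13, 4.44 and 0.838 CPM in Th1 and 3.62, 5.81, 3.02, 5.79 and 2.69 CPM in Tfh5 overlapped (log2 0.76 ± 0.39, edgeR adjusted p = 0.0926). That call changed in a few settings: the adjusted p was 0.0253 without Th1 replicate 4 and 0.00915 with the replicate number as a block. Gata3, the Th2 factor, differed by 1.56-fold (12.8 ± 2.18 CPM in Th1, 20.03 ± 3.22 CPM in Tfh5, edgeR adjusted p = 4.67e-04).

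Over the list of 61 tested helper cell transcription factors, 26 were higher in Tfh5, 28 lower and 7 did not pass, with a median log2 fold change of -0.09, so this list as a whole leaned neither way. Its highest member was Gli3, a Hedgehog pathway factor, at 0 to 0.208 CPM in Th1 and 30.4, 24.3, 31.3, 41.2 and 28.4 CPM in Tfh5 (468-fold, and 1109-fold without Th1 replicate 2). Gli3 had only 4 counts over the Th1 libraries, so the size of both folds is uncertain. Eomes, a T-box relative of T-bet, was low in both groups and lower in Tfh5 (3.59 ± 0.58 CPM in Th1, 0.357 ± 0.192 CPM in Tfh5, 10.004-fold). Runx1 was 39.7, 38.1, 37.1, 41.5 and 36.9 CPM in Th1 and 152, 173, 151, 189 and 170.2 CPM in Tfh5 (4.32-fold), while Runx3, a partner of T-bet, was 321 ± 43.3 CPM in Th1 and 58.4 ± 4.81 CPM in Tfh5 (log2 -2.46 ± 0.10). Ikzf3, which encodes Aiolos, was 27.4 ± 3.43 CPM in Th1 and 655 ± 109.9 CPM in Tfh5 (log2 4.58 ± 0.13).

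**Figure D2:**
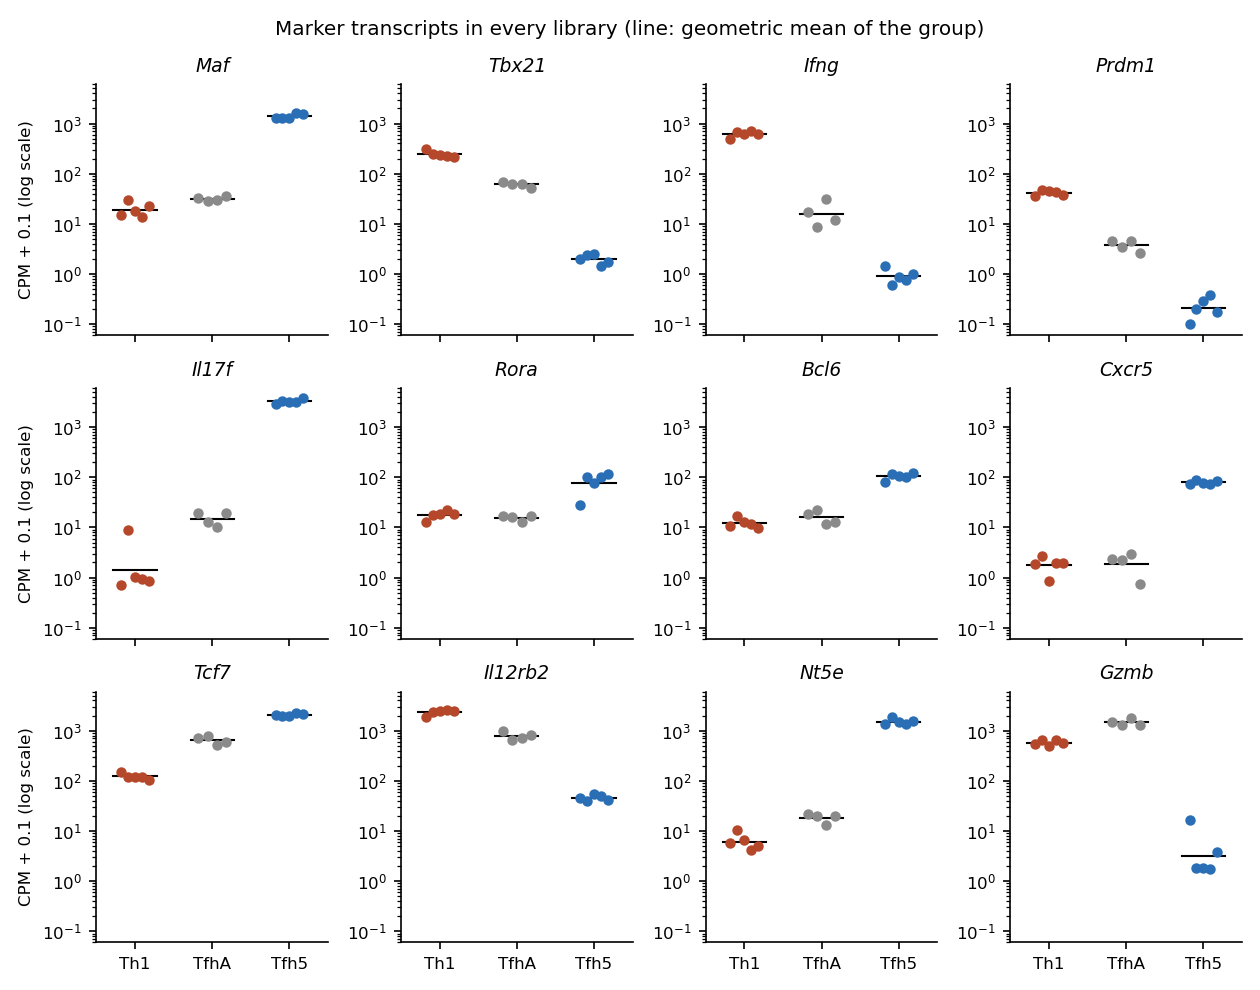
CPM + 0.1 (log axis) of 12 marker transcripts in each library of Th1 (5 points), TfhA (4) and Tfh5 (5), with a line at the geometric mean of the group. Maf, Il17f, Rora, Bcl6, Cxcr5, Tcf7 and Nt5e are higher in all 5 Tfh5 libraries than in any Th1 library, Tbx21, Ifng, Prdm1, Il12rb2 and Gzmb are lower, and TfhA stands above Th1 for Gzmb.

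The signature cytokines lay at opposite ends of the comparison. Ifng (chr10:118441046-118445894), the Th1 cytokine, was 493, 666, 627, 708 and 623 CPM in the Th1 libraries and 1.33, 0.51, 0.755, 0.664 and 0.897 CPM in the Tfh5 libraries. That is a loss of 735-fold with wide separation of the groups (log2 -9.52 ± 0.30, edgeR adjusted p = 8.13e-19). Il17f (chr1:20777146-20785274) ran the other way, from 0.624, 8.6, 0.907, 0.832 and 0.761 CPM in Th1 to 2892, 3311, 3126, 3201 and 3839 CPM in Tfh5, where it was among the transcripts with the largest gains in CPM. The fitted difference was 1384-fold (log2 10.43 ± 0.45, edgeR adjusted p = 2.30e-16), and 4166-fold without Th1 replicate 2, the highest of its group. Il17a was 0.0624, 0.971, 0.0756, 0.0694 and 0 CPM in Th1 and 317, 302, 260.2, 314 and 393 CPM in Tfh5, a difference of 1275-fold that became 5017-fold without the same library. Over the Th1 libraries Il17a had only 17 counts and Il17f 168, so the size of the Il17a folds is uncertain. Both genes encode ligands of one receptor on stromal and epithelial cells.

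Other cytokines differed in both directions and by very different amounts. Il21, the cytokine through which follicular helper cells act on B cells, was 195, 242, 199, 200.5 and 212 CPM in Th1 and 598, 789, 707, 828 and 764 CPM in Tfh5, higher by 3.52-fold without overlap (edgeR adjusted p = 2.56e-14). Il24, a member of the interleukin-10 family, was 759, 625, 767, 894 and 792 CPM in Th1 and 2.19, 1.22, 1.79, 0.475 and 0.747 CPM in Tfh5 (603-fold lower). Lta, which encodes lymphotoxin-α, was 1161 ± 86 CPM in Th1 and 61.3 ± 3.88 CPM in Tfh5 (18.9-fold lower), and Tnf was 116 ± 3.98 and 67.7 ± 6.04 CPM (1.72-fold lower). Il2 was low in both, at 1.87, 3.19, 3.7, 1.66 and 2.97 CPM in Th1 and 9.52, 5.51, 11, 7.5 and 8.44 CPM in Tfh5 (3.16-fold higher, edgeR adjusted p = 1.21e-06), while TfhA held 64.6 ± 20.8 CPM. Il10 was 15.8 ± 2.39 CPM in Th1 and 9.56 ± 1.39 CPM in Tfh5 (1.65-fold lower, edgeR adjusted p = 0.00318), with 0.323 ± 0.342 CPM in TfhA. Il22, a Th17 cytokine, did not follow Il17a and Il17f: it was 3.73 ± 0.378 CPM in Th1 and 0.0747 ± 0.167 CPM in Tfh5 (log2 -5.23 ± 0.55). Of 29 tested cytokine genes 8 were higher (27.6%), 17 lower (58.6%) and 4 did not pass, with a median log2 fold change of -1.01. Among all genes 31.5% were higher and 33% lower.

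Receptors for the cytokines that steer helper cells differed in the same samples. Il12rb2, the signalling chain of the interleukin-12 receptor, was 1911, 2355, 2493, 2598 and 2469 CPM in Th1 and 45.3, 39.2, 54.8, 50.8 and 41.7 CPM in Tfh5, 51-fold lower (log2 -5.67 ± 0.14, edgeR adjusted p = 1.11e-20). Il1r1, the interleukin-1 receptor, was 1.06, 3.12, 1.74, 1.66 and 1.22 CPM in Th1 and 115, 126, 93.1, 103 and 122 CPM in Tfh5 (63.2-fold higher). Il1r2, a decoy receptor for the same cytokine, was 31.3, 33.8, 33, 35 and 38.7 CPM in Th1 and 2.29, 2.04, 1.89, 2.09 and 1.57 CPM in Tfh5 (17.4-fold lower). The signalling and the decoy receptor separated the groups in opposite directions. Il6st, the gp130 chain shared by the interleukin-6 family, was 20.02, 17.4, 21.5, 16.5 and 16.3 CPM in Th1 and 77.9, 123, 104, 149.95 and 161 CPM in Tfh5 (6.71-fold higher), and Il6ra was 35.3 ± 2.99 CPM in Th1 and 108 ± 21.7 CPM in Tfh5 (log2 1.61 ± 0.12). Il23r, the interleukin-23 receptor of Th17 cells, was 21, 25.7, 31, 30.7 and 29.5 CPM in Th1 and 4.95, 5.71, 9.06, 11.6 and 7.25 CPM in Tfh5, 3.57-fold lower in Tfh5, while 13 of the 22 Th17 genes were higher. Among 17 genes of interleukin-6, interleukin-21 and STAT3 signalling, 9 were higher (52.9%), 5 lower (29.4%) and 3 did not pass (median log2 0.45). Among 16 receptor genes of the interleukin-12 and interleukin-1 families, 5 were higher (31.2%), 10 lower (62.5%) and 1 did not pass (median log2 -0.54). The shares of all genes were 31.5% and 33%.

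The Th1 list of 25 genes had 24 members lower in Tfh5 and 1 higher, with a median log2 fold change of -2.64, where 33% of all genes were lower. Il2 was the exception. The genes of these lists are known markers of the subsets and were chosen with results of these samples known, so their direction describes the samples and is no independent evidence. The follicular helper list had 15 of 25 members higher and 10 lower (median log2 1.61), and the Th17 list had 13 of 22 higher, 8 lower and 1 that did not pass (median log2 2.62). The members of the follicular list that were lower in Tfh5 included Icos, its costimulatory receptor, at 820.2, 924, 955, 937 and 998 CPM in Th1 and 384, 382, 352, 369 and 376 CPM in Tfh5 (2.49-fold, edgeR adjusted p = 5.01e-13). Sh2d1a, the adaptor SAP that follicular helper cells need for contact with B cells, was also lower, at 336 ± 40.4 CPM in Th1 and 219.95 ± 24.9 CPM in Tfh5 (1.53-fold). Tnfsf8, which encodes CD30 ligand, fell most in the list, from 141 ± 6.21 CPM in Th1 to 11.9 ± 2.25 CPM in Tfh5 (11.9-fold). In the Th17 list the lower members included Basp1, at 214 ± 23.9 CPM in Th1 and 13.2 ± 1.99 CPM in Tfh5 (16.2-fold). Of 20 regulatory T cell genes 5 were higher (25%), 11 lower (55%) and 4 did not pass (median log2 -0.72). Of 10 Th2 and Th9 genes 2 were higher (20%), 7 lower (70%) and 1 did not pass (median log2 -0.70). The shares of all genes were 31.5% and 33%.

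Genes of the TGF-β pathway were more often higher than lower: 22 of 30 were higher in Tfh5, 6 lower and 2 did not pass, against 31.5% and 33% of all genes, and the median log2 fold change was 0.71. Smad7, the inhibitory SMAD that TGF-β induces, was 21.8, 20.9, 20.1, 20.7 and 16.9 CPM in Th1 and 95.4, 108, 86.5, 79.7 and 108 CPM in Tfh5, without overlap (4.75-fold, log2 2.25 ± 0.12, edgeR adjusted p = 3.50e-14). Ldlrad4, another inhibitor of SMAD signalling, was 2.68, 11, 2.27, 4.51 and 3.81 CPM in Th1 and 102, 107, 101, 108 and 121 CPM in Tfh5 (22.1-fold). Acvr2a, an activin receptor, was 6.3, 7.14, 6.35, 7.7 and 6.32 CPM in Th1 and 211, 182, 177, 185 and 149.9 CPM in Tfh5 (26.7-fold, edgeR adjusted p = 3.93e-20). Tgfbi, a matrix protein named for its induction by TGF-β, was 0.998, 0.485, 1.06, 0.208 and 0.305 CPM in Th1 and 10.4, 7.65, 10.8, 9.3 and 12.6 CPM in Tfh5 (16.3-fold). Itgae, the CD103 integrin chain of epithelium-associated T cells and a TGF-β target, was 1.75, 1.04, 1.36, 0.832 and 0.609 CPM in Th1 and 15.4, 11.8, 20.3, 17.6 and 14.3 CPM in Tfh5 (14-fold).

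The receptors Tgfbr1 (17.5 ± 1.74 CPM in Th1, 136 ± 14.7 CPM in Tfh5) and Tgfbr2 (77 ± 2.35 and 349 ± 16.3 CPM) had log2 fold changes of 2.96 and 2.18. Smad3, the receptor-activated SMAD, was 30.1 ± 3.26 CPM in Th1 and 172 ± 4.58 CPM in Tfh5 (log2 2.51 ± 0.09), and Skil, a repressor of SMAD targets, was 108 ± 9.07 and 361 ± 5.91 CPM (log2 1.75 ± 0.09). Other members were lower. Ltbp3, which encodes a protein that binds latent TGF-β, was 4.72 ± 0.853 CPM in Th1 and 0.552 ± 0.319 CPM in Tfh5 (log2 -3.05 ± 0.41). The coreceptor Tgfbr3 was 128 ± 14.7 and 47.8 ± 8.12 CPM (log2 -1.41 ± 0.11), and Bambi, a decoy receptor, was 3.14 ± 0.806 and 1.11 ± 0.615 CPM (log2 -1.51 ± 0.35). The ligand genes Tgfb1 and Tgfb3 did not pass, with Tgfb1 at 357 ± 39.1 CPM in Th1 and 333 ± 40.7 CPM in Tfh5 (log2 -0.10, edgeR adjusted p = 0.419).

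Genes of the interleukin-2 and STAT5 response were lower almost throughout, with 18 of 20 lower, 1 higher and 1 that did not pass (median log2 -1.79). Il2ra, the high-affinity receptor chain CD25, was 6238, 6632, 7356, 7724 and 7090.4 CPM in Th1 and 1438, 1921, 1988, 1814 and 1587 CPM in Tfh5 (4.01-fold lower, edgeR adjusted p = 8.17e-15), and TfhA held 2494 ± 198 CPM. Cdkn1a, which encodes the cell cycle inhibitor p21, was 616, 502, 484, 495 and 449.5 CPM in Th1 and 30.5, 39.98, 42.7, 35.7 and 36 CPM in Tfh5 (13.8-fold lower). Bcl2, the survival factor, was 566, 576, 614, 639 and 572 CPM in Th1 and 54, 56.5, 66.1, 76.6 and 63.3 CPM in Tfh5 (9.37-fold lower, edgeR adjusted p = 8.63e-19). TfhA kept 544 ± 59.4 CPM of Bcl2. The member that was higher, Stat5b, differed by only 1.16-fold with overlapping libraries (248 to 297 CPM in Th1, 268 to 340.2 CPM in Tfh5, edgeR adjusted p = 0.0307), and it did not pass when any of Tfh5 replicates 2 and 5 or Th1 replicates 2, 3 and 5 was left out (adjusted p from 0.0535 to 0.0886).

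Interferon response genes were lower in Tfh5. Of 33 tested type I interferon response genes 28 were lower, none was higher by the edgeR test (0 at an unadjusted p under 0.05 and 0 by DESeq2) and 5 did not pass. Their median log2 fold change was -2.52. Isg15, a ubiquitin-like protein, was 26.3, 22.3, 17.3, 16 and 20.8 CPM in Th1 and 0.666, 0.51, 0.283, 0.285 and 0.0747 CPM in Tfh5 (57.2-fold lower, log2 -5.84 ± 0.29, edgeR adjusted p = 3.70e-15). Oas3, an RNA sensor that activates RNase L, was 214, 166, 157, 166 and 148 CPM in Th1 and 2.57, 2.24, 1.7, 1.42 and 1.72 CPM in Tfh5 (88.3-fold lower, edgeR adjusted p = 2.91e-20). Ifi44 was 6.38 to 9.83 CPM in Th1 and 0 to 0.19 CPM in Tfh5 (95.5-fold lower, and 144-fold without Tfh5 replicate 1 or, at 143-fold, without Tfh5 replicate 3). With only 4 counts of Ifi44 over the Tfh5 libraries, the size of these folds is uncertain. Mx1, annotated as a transcribed pseudogene in this genome, was 4.49 to 6.09 CPM in Th1 and 0 to 0.952 CPM in Tfh5 (16.5-fold lower, and 34.4-fold without Tfh5 replicate 1), while TfhA held 14.2 ± 2.79 CPM. The 5 members that did not pass were Ifit2, Ifit3, Ifit1bl1, Samd9l and Oasl1, and Ifit2 stood at 10.7 ± 1.18 CPM in Th1 and 10.7 ± 1.61 CPM in Tfh5 (log2 0.00). Ifit, Gbp and Oas genes have close relatives, and the sources used here do not say how reads matching several of them were counted.

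Interferon-γ response genes followed, with 29 of 34 lower, 2 higher and 3 that did not pass (median log2 -1.87). Gbp6, a guanylate-binding protein of cell-autonomous defence, was 19.2, 23.1, 20.6, 18.9 and 26.6 CPM in Th1 and 0.19, 0.408, 0.377, 0 and 0 CPM in Tfh5 (112-fold lower). Gbp4 was 214, 266, 277, 244 and 255 CPM in Th1 and 10.9, 9.38, 6.23, 11.1 and 5.01 CPM in Tfh5 (29.7-fold lower, edgeR adjusted p = 3.86e-18). Serpina3g was 29.1 ± 3.25 CPM in Th1 and 0.667 ± 0.781 CPM in Tfh5 (44.5-fold lower, and 88.5-fold without Tfh5 replicate 4). B2m, the light chain of MHC class I, was 8036, 9931, 9401, 9039 and 10397 CPM in Th1 and 3432, 3033, 2926, 2929.5 and 2592 CPM in Tfh5, the largest loss in CPM of all genes that passed (3.14-fold, edgeR adjusted p = 8.00e-13). Irf8, an interferon-induced factor, was 408, 306, 297, 299.99 and 296 CPM in Th1 and 31.5, 28, 34.3, 31.2 and 29.7 CPM in Tfh5 (10.4-fold lower), and TfhA was lower still at 12.3 ± 2.73 CPM. Ifngr2, a chain of the interferon-γ receptor, was higher: 14.8, 11.7, 11.3, 10.9 and 10.2 CPM in Th1 and 161, 122, 127, 134 and 125 CPM in Tfh5 (11.3-fold, edgeR adjusted p = 2.77e-18). The receptor's other chain, Ifngr1, was 200.4 ± 12.9 CPM in Th1 and 191 ± 11.9 CPM in Tfh5 (log2 -0.07, edgeR adjusted p = 0.431).

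The promoters of such genes can be read for the short elements to which interferon-activated factors bind. RefSeq promoter windows (GRCm38.p6, from 250 bases before to 50 after the gene's start) were available for 24 of the 33 type I genes and 26 of the 34 interferon-γ genes. The interferon-stimulated response core GAAANNGAA, on either strand, was in 17 of 30 windows of the type I list (56.7%) and in 8.56% of all 32851 promoter windows. It was in 7.26% of windows of tested genes, 9.6% of those of genes at least 2-fold lower and 7.0% of those at least 2-fold higher. With only the 200 bases before the start, it was in 11 of the 30 (36.7%) and in 5.57% of all windows. The gamma-activated site TTCNNNGAA was in 10 of 30 windows of the interferon-γ list (33.3%) and in 8.3% of all windows (33.3% and 5.49% in the 200 bases). Among windows of tested genes it was in 6.9%. The stretches below are shown because they carry these letters in genes whose transcripts were lower in Tfh5, except Ifit3, which did not pass. Capitals mark the matches, and each sequence runs 5′ to 3′ on the strand of its gene.
Isg15, chr4:156200861-156200911, minus strand: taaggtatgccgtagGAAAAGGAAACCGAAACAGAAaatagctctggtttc
Oas3, chr5:120777705-120777749, minus strand: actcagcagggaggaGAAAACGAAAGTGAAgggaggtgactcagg
Bst2, chr8:71537573-71537617, minus strand: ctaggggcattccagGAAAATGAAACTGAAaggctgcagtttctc
Ifit1, chr19:34640765-34640828, plus strand: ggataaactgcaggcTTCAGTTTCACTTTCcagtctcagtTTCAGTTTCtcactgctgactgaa
Ifit3, chr19:34583359-34583450, plus strand: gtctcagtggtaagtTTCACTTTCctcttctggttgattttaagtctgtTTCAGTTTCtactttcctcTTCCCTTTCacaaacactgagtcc
Irf1, chr11:53769909-53769947, plus strand: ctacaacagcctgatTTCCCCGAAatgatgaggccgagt
Irf8, chr8:120736172-120736228, plus strand: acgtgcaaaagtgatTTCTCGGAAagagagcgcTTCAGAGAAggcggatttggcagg
Gbp7, chr3:142530215-142530272, plus strand: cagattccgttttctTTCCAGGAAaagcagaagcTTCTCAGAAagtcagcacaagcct

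In Isg15 the matches overlap and begin 78 to 66 bases before the start, and in Oas3 75 to 69 bases before it. Bst2, which encodes tetherin, was 91.2 ± 15.8 CPM in Th1 and 24.7 ± 1.17 CPM in Tfh5 (log2 -1.88 ± 0.11), and Ifit1 was 9.16 ± 0.788 and 0.864 ± 0.588 CPM (log2 -3.40 ± 0.29). Ifit3 holds 3 matches and its transcript did not pass, with 0.325 ± 0.238 CPM in Th1 and 0.213 ± 0.282 CPM in Tfh5 (edgeR adjusted p = 0.487). At levels this near 0 a difference could hardly be seen, so Ifit3 is a weak contrast. Samd9l, with 1 match that is not shown, did not pass either (log2 -0.06, edgeR adjusted p = 0.81). Irf1 was 213 ± 24.2 CPM in Th1 and 45.6 ± 3.02 CPM in Tfh5 (log2 -2.22 ± 0.09), and Gbp7 was 134 ± 18.8 and 7.32 ± 1.83 CPM (log2 -4.20 ± 0.17). The other motifs searched were less common. The E2F site TTTCCCGC was in 4 of 36 windows of the cell cycle list (11.1%) and 1.07% of all windows. It was in 2.03% of windows of tested genes and 1.75% of those of genes at least 2-fold lower. The sterol element TCACNCCAC was in 1 of 25 windows of the sterol list (4.0%) and 1.24% of all. The T-box core TCACACC was in 1 of 26 windows of the Th1 list (3.85%), 3.98% of all and 3.35% of those of tested genes. The ROR core TAGGTCA was in 2 of 25 windows of the Th17 list (8.0%) and 2.61% of all. These 2 windows belong to Ccr6, which was higher in Tfh5, and Il23r, which was lower. The SMAD site GTCTAGAC was in 3.85% of windows of the TGF-β list and 0.213% of all, which is 1 window of 26, and in 0 of the 26 with only the 200 bases before the start. A match is a description of letters, and whether a factor was bound there was not measured.

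**Figure D3:**
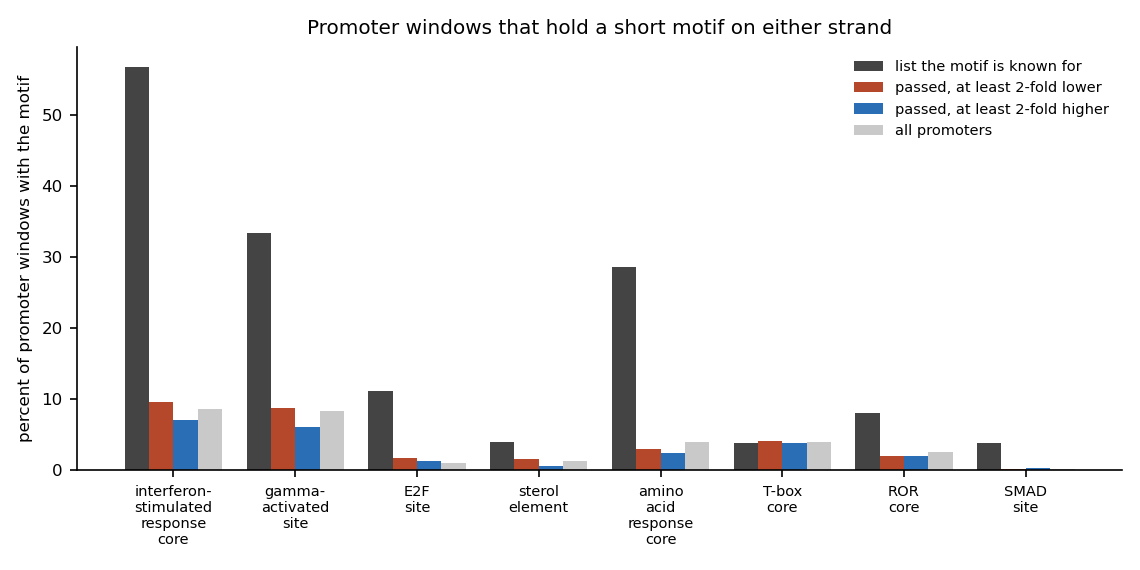
Percent of promoter windows that hold each of 8 short motifs on either strand, for the gene list the motif is known for, for genes at least 2-fold lower or higher in Tfh5 and for all promoters. The interferon-stimulated response core stands at 56.7% in its list and 8.56% in all promoters, and the T-box core at 3.85% in the Th1 list and 3.98% in all promoters. All promoters include those of genes that were not tested.

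Cytotoxic granule genes were lower, with 14 of 18 lower, 4 higher and a median log2 fold change of -3.24. Gzmb, which encodes the protease granzyme B, was 537, 658, 503, 650.5 and 565 CPM in Th1 and 16.1, 1.73, 1.7, 1.61 and 3.74 CPM in Tfh5. Tfh5 replicate 1 held several times the level of the other 4 libraries, and the difference of 117-fold (edgeR adjusted p = 3.79e-14) became 255-fold without it. The TfhA libraries, at 1515, 1304, 1776 and 1295 CPM in replicates 1, 2, 4 and 5, were above all Th1 libraries. Nkg7, a granule membrane protein, was 142, 155, 131, 150.3 and 141 CPM in Th1 and 3.62, 2.35, 1.32, 0.475 and 1.79 CPM in Tfh5 (75.3-fold lower). Serpinb6b, an inhibitor of granule proteases, was 241 ± 20.01 CPM in Th1 and 5.33 ± 1.87 CPM in Tfh5 (44.6-fold lower). Klrk1, the activating receptor NKG2D, was 29.7, 43.5, 43.5, 44.7 and 43.2 CPM in Th1 and 1.43, 0.408, 0.472, 1.9 and 0.374 CPM in Tfh5 (45-fold lower). Ctsw, the lysosomal protease cathepsin W, went against the list with 29.4, 27, 21.3, 23 and 19.6 CPM in Th1 and 355, 356, 329.7, 373 and 362 CPM in Tfh5 (14.7-fold higher, edgeR adjusted p = 1.73e-18). Granzymes and serpins have near relatives, so their levels depend on how shared reads were counted.

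Genes of homing receptors were divided, with 15 of 25 higher, 10 lower and a median log2 fold change of 0.69. Cxcr5, which draws cells into B cell follicles, was 1.75, 2.63, 0.756, 1.87 and 1.83 CPM in Th1 and 73.9, 87.6, 76.9, 73 and 85 CPM in Tfh5 (44.3-fold, log2 5.47 ± 0.21, edgeR adjusted p = 2.89e-17). Gpr15, a receptor that guides T cells to the colon, was 0.748, 0.763, 0.756, 0.416 and 0.99 CPM in Th1 and 143, 182, 166, 185 and 181 CPM in Tfh5 (231-fold, log2 7.85 ± 0.23). Ccr6, the receptor of Th17 cells for CCL20, was 4.74, 4.72, 3.78, 3.26 and 6.32 CPM in Th1 and 21.6, 45.3, 42, 36.3 and 49.5 CPM in Tfh5 (8.53-fold). Higher levels were also found for Cxcr6 (3.57 ± 0.782 CPM in Th1, 42.2 ± 5.77 CPM in Tfh5, 11.8-fold) and Ccr8 (8.91 ± 1.7 and 81.4 ± 14 CPM, 9.13-fold). Cxcr3, the receptor of Th1 cells for interferon-induced chemokines, was 44.6, 42.1, 38.9, 41.5 and 39.1 CPM in Th1 and 7.81, 5.91, 5.28, 7.12 and 9.64 CPM in Tfh5 (5.71-fold lower, edgeR adjusted p = 4.41e-14), and TfhA stood above both at 100.1 ± 16.4 CPM. Ccr7, which keeps cells in the T cell zone, differed least: 796 ± 104 CPM in Th1 and 628 ± 55.1 CPM in Tfh5 (1.27-fold lower, edgeR adjusted p = 0.00586).

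Chemokine ligands were mostly lower, with 3 of 11 higher (27.3%) and 8 lower (72.7%), against 31.5% and 33% of all genes (median log2 -2.64). Ccl20, the ligand of CCR6, was 0.0624, 0.971, 0.0756, 0.347 and 0.457 CPM in Th1 and 296, 342, 295, 265 and 309 CPM in Tfh5 (773-fold, and 1258-fold without Th1 replicate 2), so receptor and ligand were higher in the same libraries. Cxcl10, a ligand of CXCR3, was 23.6, 26.4, 33.5, 20.7 and 32.9 CPM in Th1 and 0.476, 0.51, 0.849, 1.9 and 0.673 CPM in Tfh5 (30.9-fold lower). Cxcl11, in other strains a further ligand of CXCR3 and annotated by RefSeq as a transcribed pseudogene in this genome, had 1153 counts over the 5 Th1 libraries and 1 count over the 5 Tfh5 libraries, in replicate 3, a ratio of 887 (159 to 35081) with its 95% counting interval. Xcl1, the lymphotactin of cells that contact cross-presenting dendritic cells, was 0 to 0.454 CPM in Th1 and 4.62 to 8.29 CPM in Tfh5 (36.5-fold higher, and 57.6-fold without Th1 replicate 3).

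Of 25 integrin and adhesion genes, 11 were higher (44%), 9 lower (36%) and 5 did not pass (median log2 -0.03), against 31.5% and 33% of all genes. Icam1, the ligand of LFA-1, was 125 ± 12 CPM in Th1 and 29.3 ± 2.85 CPM in Tfh5 (4.25-fold lower). Itga6, a laminin-binding integrin chain, was 21.6 ± 1.72 CPM in Th1 and 92.7 ± 14 CPM in Tfh5 (4.29-fold higher), with 79.8 ± 11.7 CPM in TfhA.

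Costimulatory and inhibitory receptors changed in both directions. Of 31 TNF family ligands and receptors, 11 were higher (35.5%), 19 lower (61.3%) and 1 did not pass (median log2 -0.998). Of 28 CD28 family and inhibitory receptor genes 13 were higher, 13 lower (46.4% each) and 2 did not pass (median log2 0.00). The shares of all genes were 31.5% and 33%. Tnfrsf9, the activation receptor 4-1BB, was 792, 775, 618, 663 and 695 CPM in Th1 and 37.8, 48.7, 37, 38.3 and 33 CPM in Tfh5 (18.2-fold lower, edgeR adjusted p = 9.31e-20). Fasl, the death ligand, was 24.1, 28.7, 28.4, 35.3 and 25.2 CPM in Th1 and 1.14, 0.816, 2.83, 1.33 and 0.897 CPM in Tfh5 (20.2-fold lower). Cd226, an activating receptor for nectin-like ligands, was 45.7, 56.9, 66.5, 68.1 and 71 CPM in Th1 and 1.71, 0.918, 1.13, 1.9 and 0.673 CPM in Tfh5 (49-fold lower), and Slamf7 was 217 ± 30.4 and 6.48 ± 0.406 CPM (33.4-fold lower). Cd101, an immunoglobulin-family membrane protein, was 4.8, 4.78, 4.91, 3.12 and 3.12 CPM in Th1 and 153, 174, 172, 202 and 179 CPM in Tfh5 (42.2-fold higher, edgeR adjusted p = 1.11e-20). Pdcd1, the inhibitory receptor PD-1 that marks follicular helper cells, was 41.3, 42, 29.3, 33.8 and 32.4 CPM in Th1 and 60.7, 67.3, 53.7, 66.1 and 84.7 CPM in Tfh5 (1.86-fold higher, edgeR adjusted p = 2.81e-06). Cd200, often high on follicular helper cells, was 1120.2 ± 74.4 CPM in Th1 and 123 ± 16.4 CPM in Tfh5 (9.08-fold lower).

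Genes of quiescent and naive cells were more often higher in Tfh5, with 18 of 30 higher, 9 lower and 3 that did not pass (median log2 0.72). Klf2, a factor of resting T cells that supports their recirculation, was 10.2, 8.18, 7.94, 8.67 and 9.06 CPM in Th1 and 213, 159, 169, 194 and 165 CPM in Tfh5 (20.4-fold, edgeR adjusted p = 4.11e-20). Igfbp4, which binds insulin-like growth factors, was 395, 341, 312, 269.5 and 365 CPM in Th1 and 3486, 2152, 3006, 3549.7 and 2684 CPM in Tfh5 (8.84-fold). TfhA reached 3278 ± 116 CPM of Igfbp4. Ndrg1, a T cell anergy factor, was 282 ± 33.6 CPM in Th1 and 27.7 ± 3.85 CPM in Tfh5 (10.2-fold lower), and Dapl1 was 15.1 ± 2.99 and 0.5 ± 0.208 CPM (29.9-fold lower).

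Of 32 genes of the T cell receptor and T cell identity, 25 were higher, 4 lower and 3 did not pass (median log2 0.77, 31.5% higher among all genes). Ubash3b, a phosphatase that dampens T cell receptor signals, was 75.8 ± 13.1 CPM in Th1 and 321 ± 51.7 CPM in Tfh5 (4.24-fold higher), and Ptpn22, another such phosphatase, was 167 ± 12.9 and 548 ± 19.5 CPM (3.27-fold higher). Transcripts that define the cell type were present in both groups, with Cd3e at 498 ± 26.1 CPM in Th1 and 972 ± 94.4 CPM in Tfh5, and Cd4 at 460.2 ± 23.9 and 548 ± 26.6 CPM. Themis, a T cell signalling protein, was the member farthest in the other direction, at 620.4, 750.3, 866, 957 and 842 CPM in Th1 and 63, 69.7, 77.4, 74.5 and 64.5 CPM in Tfh5 (11.6-fold lower, edgeR adjusted p = 2.89e-17). Activation factors showed no common direction, with 19 of 42 higher, 19 lower and 4 that did not pass (median log2 -0.23). Batf3, an AP-1 factor, was 175, 111, 96.6, 109 and 102 CPM in Th1 and 1.14, 0.102, 0.377, 0 and 0.149 CPM in Tfh5 (332-fold lower, and 707-fold without Tfh5 replicate 1). Dusp5, a phosphatase of nuclear ERK, was 75.9 ± 3.53 CPM in Th1 and 9.61 ± 2.9 CPM in Tfh5 (7.88-fold lower), whereas Fos was 3.56 ± 1.46 and 21.4 ± 2.97 CPM (5.97-fold higher).

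Cell cycle genes were lower with 1 exception: 39 of 40 were lower in Tfh5, none was higher by the edgeR test (0 at an unadjusted p under 0.05 and 0 by DESeq2) and 1, the replication helicase gene Mcm6, did not pass (478 ± 17.5 CPM in Th1, 509 ± 18.6 CPM in Tfh5). The median log2 fold change was -0.86, a smaller shift than that of the subset markers. Ccnd3, the D-type cyclin of lymphocytes, was 559.6, 471, 471, 465 and 482 CPM in Th1 and 86.9, 74.5, 80.8, 71.4 and 76.3 CPM in Tfh5 (6.28-fold lower, edgeR adjusted p = 4.76e-17). Tk1, a thymidine kinase of S phase, was 48, 42.2, 41.4, 39.95 and 40.6 CPM in Th1 and 12.8, 12.6, 10.2, 11.3 and 14.9 CPM in Tfh5 (3.42-fold lower), while TfhA held 46.8 ± 7.97 CPM. E2f1, a factor of S phase entry, was 18.7 ± 4.23 CPM in Th1 and 6.24 ± 1.38 CPM in Tfh5 (2.99-fold lower). Mki67, the proliferation marker, was 1388 ± 213 CPM in Th1 and 879.9 ± 228 CPM in Tfh5 (log2 -0.66 ± 0.15). Among the inhibitors, Cdkn1b, which encodes p27, was 111, 114, 113, 115 and 108 CPM in Th1 and 327, 272, 257, 274 and 249 CPM in Tfh5 (2.46-fold higher, edgeR adjusted p = 2.28e-12), in contrast with Cdkn1a above. Cdkn2c was 12.9 ± 1.74 and 16.6 ± 3.13 CPM, with overlapping libraries and an adjusted p of 0.0393 that rose above 0.05 without Tfh5 replicate 1 (0.0808), 4 (0.0578) or 5 (0.121) or without Th1 replicate 1 (0.0843), 4 (0.0894) or 5 (0.0752).

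Metabolic genes were mostly lower in Tfh5. Of 30 glycolysis and hypoxia genes 26 were lower, 1 was higher and 3 did not pass (median log2 -1.46). Hk2, the hexokinase induced in activated T cells, was 190.1, 139.5, 155, 159 and 148 CPM in Th1 and 16.1, 15.1, 9.81, 10.7 and 14.2 CPM in Tfh5 (12-fold lower, edgeR adjusted p = 4.12e-16). Slc2a1, the glucose transporter GLUT1, was 235, 195, 194, 223 and 192 CPM in Th1 and 29.8, 45.1, 43.1, 44.1 and 46.3 CPM in Tfh5 (4.98-fold lower). Aldoa, an aldolase, was 3599, 2742, 2574, 2851 and 2599 CPM in Th1 and 757, 914, 966, 821 and 813 CPM in Tfh5 (3.36-fold lower). Pfkfb3, an activator of phosphofructokinase, was the member that was higher, by 1.29-fold and with overlapping libraries (78.8 to 94.5 CPM in Th1, 89.5 to 135 CPM in Tfh5). Sterol and fatty acid synthesis genes had 25 of 30 lower, 1 higher and 4 that did not pass (median log2 -0.64), led by Scd1, a fatty acid desaturase, at 179.6, 177, 191, 208 and 164 CPM in Th1 and 18.1, 19.1, 24, 20.4 and 23 CPM in Tfh5 (8.79-fold lower). Fdps of the isoprenoid pathway was 155 ± 13.1 CPM in Th1 and 42.8 ± 6.19 CPM in Tfh5 (3.63-fold lower), while Sc5d, a late enzyme of cholesterol synthesis, was 114 ± 13.4 and 193 ± 11.5 CPM (1.7-fold higher).

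Genes of amino acid supply and stress had 27 of 37 lower, 5 higher and 5 that did not pass (median log2 -0.68). Atf3, a stress-induced factor, was 86.5, 77.6, 84.6, 88 and 88.7 CPM in Th1 and 0.476, 1.02, 0.661, 0.569 and 2.76 CPM in Tfh5 (72.2-fold lower, and 124-fold without Tfh5 replicate 5). Slc7a5, the large neutral amino acid transporter, was 204, 179.9, 173, 173 and 151 CPM in Th1 and 37.2, 41.8, 42.6, 36.3 and 50.9 CPM in Tfh5 (4.21-fold lower, edgeR adjusted p = 8.89e-14), and Phgdh, which opens serine synthesis, was 15.9 ± 2.04 and 4.71 ± 0.873 CPM (3.38-fold lower). Dnajb9, a chaperone of the endoplasmic reticulum, was 22.9 ± 4.3 CPM in Th1 and 50.7 ± 4.67 CPM in Tfh5 (2.22-fold higher). The core TGATGNAA of the amino acid response element was in 10 of 35 RefSeq promoter windows of this list (28.6%) and in 3.97% of all windows. It was in 2.36% of windows of tested genes, 2.93% of those of genes at least 2-fold lower and 2.4% of those at least 2-fold higher. Of the members with this core, Slc1a4 was higher (log2 0.66, edgeR adjusted p = 1.83e-04) and Herpud1 did not pass (log2 -0.01, edgeR adjusted p = 0.957). The others were lower. The examples below are from members that were lower, with the match in capitals.
Atf3, chr1:191183421-191183458, minus strand: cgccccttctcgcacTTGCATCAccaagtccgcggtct
Chac1, chr2:119351034-119351071, plus strand: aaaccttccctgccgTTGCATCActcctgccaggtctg
Vldlr, chr19:27216805-27216842, plus strand: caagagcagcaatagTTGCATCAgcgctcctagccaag

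Vldlr, a lipoprotein receptor, was 55.8 ± 8.06 CPM in Th1 and 3.38 ± 1.54 CPM in Tfh5 (16.8-fold lower), and Chac1, which degrades glutathione, was 2.24 ± 0.298 and 0.258 ± 0.373 CPM (log2 -3.16 ± 0.62). Nuclear genes of the respiratory chain had 18 of 30 lower, 4 higher and 8 that did not pass (median log2 -0.34). Atp5b, a subunit of ATP synthase, was 1489, 1365, 1368, 1314 and 1466 CPM in Th1 and 716, 692, 705, 645 and 637 CPM in Tfh5 (2.06-fold lower). Mitochondrially encoded genes moved the other way: 8 of 10 were higher, none was lower by the edgeR test (0 at an unadjusted p under 0.05 and 0 by DESeq2) and 2 did not pass (median log2 0.51), in the same libraries in which the mitochondrial share of counts was higher. mt-Cytb, of complex III, was 5104, 6746, 7383, 7577 and 7074 CPM in Th1 and 10866, 8678, 9354, 10683 and 11233 CPM in Tfh5 (1.5-fold, edgeR adjusted p = 6.88e-04). mt-Nd5 passed (1.43-fold, edgeR adjusted p = 0.0163), but not without Th1 replicate 1 (adjusted p = 0.0545). Genes of ribosome biogenesis had 17 of 32 lower, 2 higher and 13 that did not pass (median log2 -0.26), with Nop56, a nucleolar protein, at 106 ± 2.64 CPM in Th1 and 59.4 ± 8.05 CPM in Tfh5 (1.78-fold lower). The part of the mitochondrial share and of library depth, which both differed between the groups, was not tested.

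**Figure D4:**
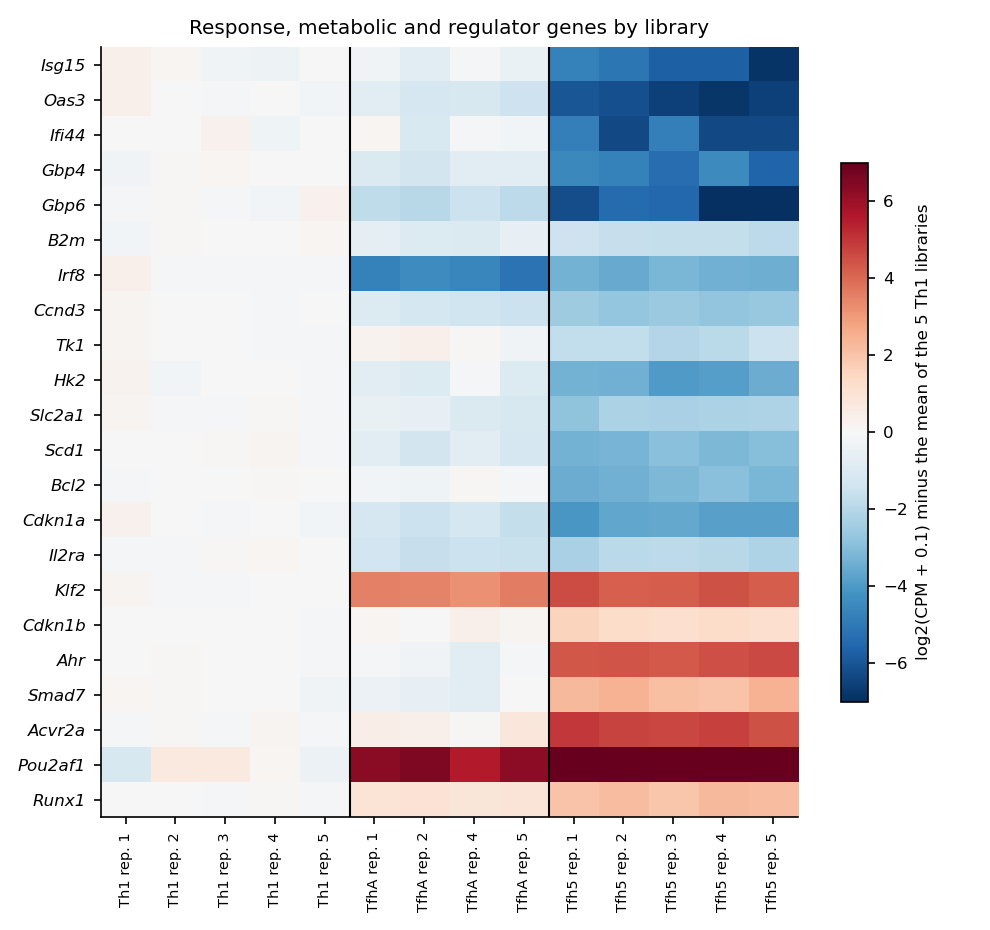
Log2(CPM + 0.1) of 22 genes in each of 14 libraries, as the difference from the mean of the 5 Th1 libraries (colour, blue lower and red higher). Interferon response, cell cycle, metabolic and interleukin-2 response genes are blue in all 5 Tfh5 libraries, Klf2, Cdkn1b, Ahr, Smad7, Acvr2a, Pou2af1 and Runx1 are red, and TfhA stands apart from both for Irf8.

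Genes of survival and death had 8 of 21 higher (38.1%) and 13 lower (61.9%), against 31.5% and 33% of all genes (median log2 -0.56). Bcl2a1b and Bcl2a1d, survival genes of the BCL-2 family, were higher, with Bcl2a1b at 10.5, 13.2, 12.3, 11.5 and 11.8 CPM in Th1 and 54.7, 48.2, 46.7, 35.9 and 52 CPM in Tfh5 (4-fold). These copies are near-identical, and reads from them cannot be told apart with certainty. Of 18 heat shock and stress genes, 6 were higher (33.3%), 9 lower (50%) and 3 did not pass. Gadd45a, induced by DNA damage, was 3.61 ± 1.32 CPM in Th1 and 41.2 ± 6.57 CPM in Tfh5 (11.4-fold higher), and its relative Gadd45g was 75.4 ± 9.77 and 10.2 ± 2.11 CPM (7.43-fold lower). Zfp36, which encodes the RNA-destabilising protein tristetraprolin, was 73.1, 88.1, 73, 68.3 and 55 CPM in Th1 and 477, 345, 418, 393 and 348 CPM in Tfh5 (5.54-fold higher).

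Purine signalling genes had 7 of 22 higher (31.8%) and 15 lower (68.2%), against 31.5% and 33% of all genes (median log2 -1.04). Nt5e, which encodes CD73, the ectoenzyme that forms adenosine from AMP, was 5.61, 10.2, 6.43, 4.09 and 4.95 CPM in Th1 and 1365, 1843, 1522, 1372 and 1526 CPM in Tfh5 (243-fold, log2 7.93 ± 0.20, edgeR adjusted p = 1.32e-20). TfhA held 18.5 ± 3.82 CPM of Nt5e. Entpd1, the CD39 enzyme that acts upstream of it, was 21.3 ± 3.39 CPM in Th1 and 5.49 ± 1.74 CPM in Tfh5 (log2 -1.95 ± 0.20). The adenosine receptor Adora2b was 20.3, 18.4, 15.9, 18.9 and 18.6 CPM in Th1 and 0.762, 1.84, 2.08, 1.23 and 1.64 CPM in Tfh5 (12.1-fold lower), and Adora3 was 6.73 to 9.22 CPM in Th1 and 0 to 0.661 CPM in Tfh5 (36.3-fold lower, and 67.6-fold without Tfh5 replicate 3). Cd38, an NAD-consuming ectoenzyme, was 6.14 ± 2.11 CPM in Th1 and 94.5 ± 9.78 CPM in Tfh5 (15.5-fold higher). The enzyme that makes adenosine and these receptors for it separated the groups in opposite directions.

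Some known targets of the aryl hydrocarbon receptor were higher together with Ahr. Cyp1b1, a cytochrome P450 that this receptor induces, was 0.312, 0.139, 0.0756, 0 and 0.0761 CPM in Th1 and 33.4, 20.7, 31, 27.6 and 30.1 CPM in Tfh5 (209.8-fold, and 345-fold without Th1 replicate 1 and 479-fold with all libraries thinned to the smallest total). Cyp1a1 had 3 counts over the Th1 libraries and 172 over the Tfh5 libraries, a ratio of 74.5 (25.1 to 365) with its 95% counting interval, and Ahrr, the repressor of the receptor, was 0.868 ± 0.219 CPM in Th1 and 12.1 ± 1.73 CPM in Tfh5 (log2 3.79 ± 0.26). Tiparp, another known target, did not pass (68.7 ± 8.56 CPM in Th1, 63.8 ± 4.21 CPM in Tfh5, edgeR adjusted p = 0.333), and Nqo1 was lower (1.53 ± 0.35 and 0.539 ± 0.489 CPM, log2 -1.53). Pparg, a lipid-sensing nuclear receptor, was 13.2, 15.5, 15.4, 15.3 and 15.7 CPM in Th1 and 0.476, 2.14, 0.472, 0.0949 and 0.149 CPM in Tfh5 (23.5-fold lower, and 50.03-fold without Tfh5 replicate 2). Nr1d1, a clock repressor that competes with ROR factors for DNA, was 1.68 ± 0.478 CPM in Th1 and 25.4 ± 2.9 CPM in Tfh5 (15-fold higher). Over the 20 genes of this list 9 were higher (45%), 6 lower (30%) and 5 did not pass (median log2 0.01), against 31.5% and 33% of all genes.

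Genes of the extracellular matrix and its turnover had 10 of 26 higher (38.5%), 15 lower (57.7%) and 1 that did not pass (median log2 -0.44). Among all genes 31.5% were higher and 33% lower. Timp2, an inhibitor of matrix metalloproteinases, was 4.74, 6.38, 5.67, 4.72 and 5.56 CPM in Th1 and 295, 329, 276, 313 and 276 CPM in Tfh5 (55-fold, edgeR adjusted p = 2.58e-20). Adam12, a membrane metalloprotease, had 2 counts over the Th1 libraries and 39, 44.9, 40.6, 43.5 and 42.8 CPM in Tfh5, a count ratio of 1501 (415 to 12404) with its 95% counting interval. Postn, which encodes the matrix protein periostin, had 2 counts in Th1, all in replicate 4, and 8.57 to 15.1 CPM in Tfh5, a count ratio of 426 (117 to 3521). Col4a1, a basement membrane collagen, was 0 to 0.305 CPM in Th1 and 5.47 to 10.5 CPM in Tfh5 (70.04-fold, and 123-fold without Th1 replicate 5).

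**Figure D5:**
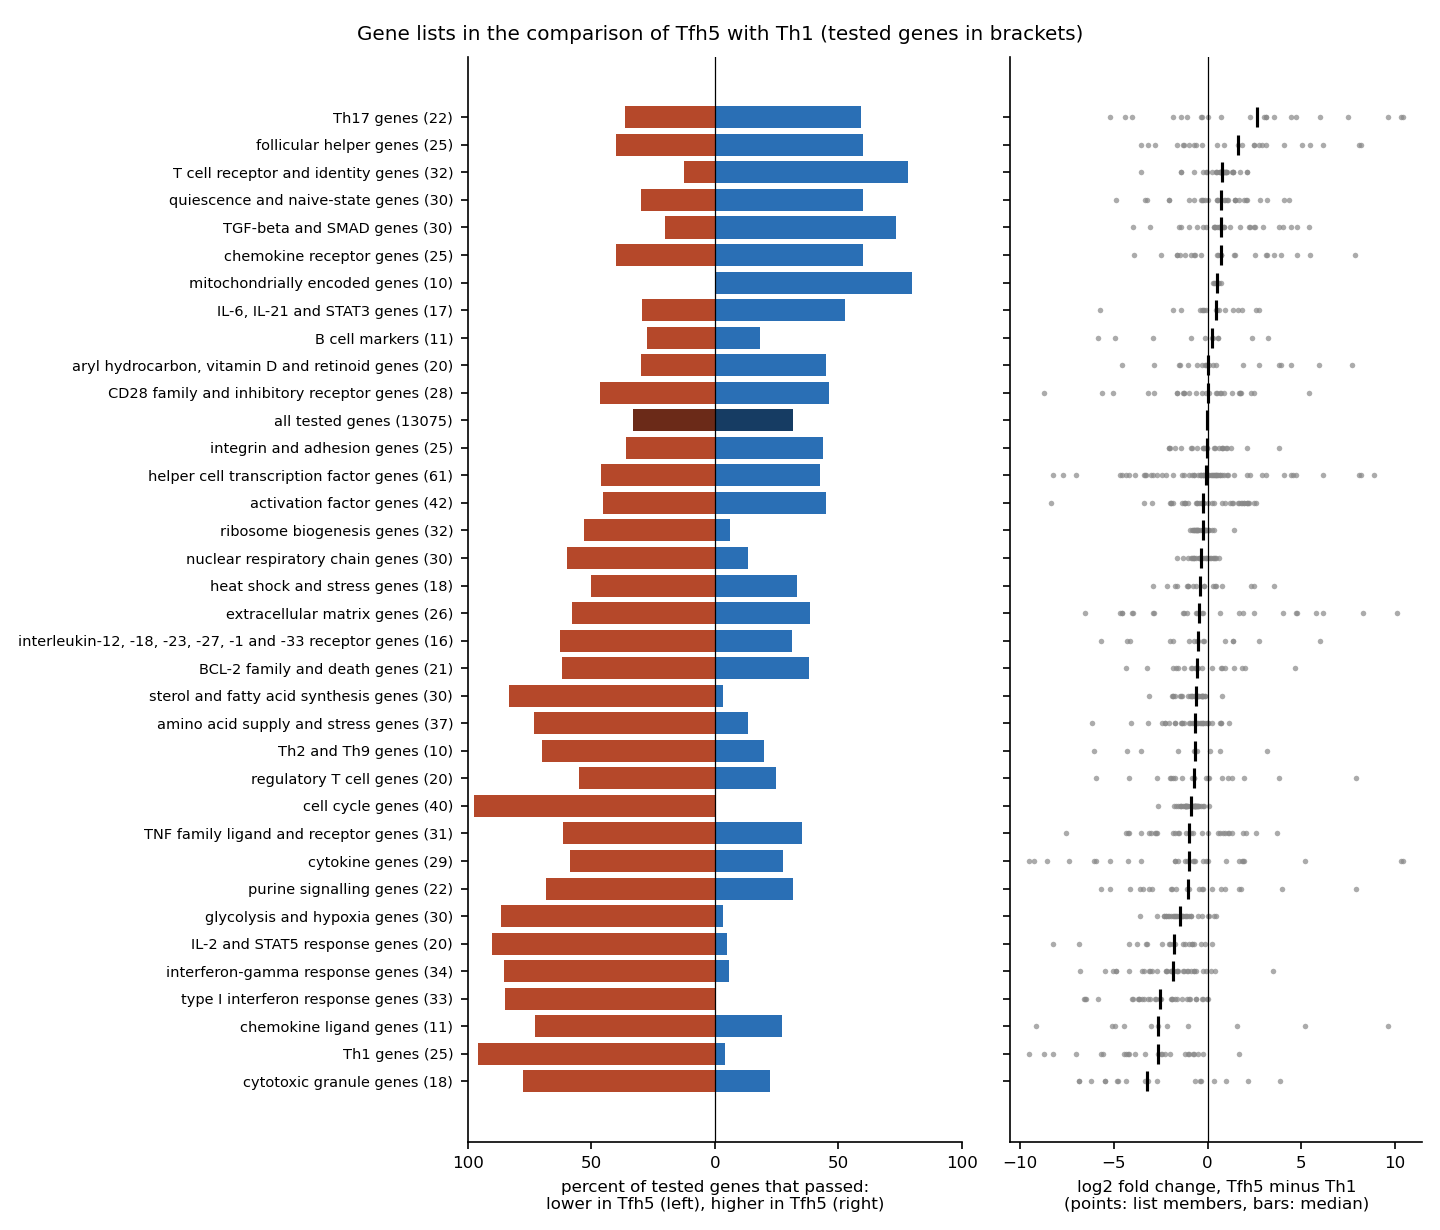
Percent of the tested members of each list with at least 10 tested genes that passed, lower in Tfh5 to the left and higher to the right, with the log2 fold changes of the members (points) and their median (bars) beside it. These lists run from a median of 2.62 for Th17 genes to -3.24 for cytotoxic granule genes, and the dark bar gives all 13075 tested genes (31.5% higher, 33% lower).

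Several genes outside these lists were among those with the highest fold changes. Daw1, an assembly factor of ciliary dynein, was 0, 0.208, 0, 0 and 0.152 CPM in Th1 and 94.3, 96.6, 95.3, 70.5 and 101 CPM in Tfh5 (1137-fold, and 2004-fold without Th1 replicate 2). Only 5 counts of Daw1 lay in the Th1 libraries, so the size of both folds is uncertain. Iglon5, a cell adhesion molecule known from neurons, was 0, 0.416, 0, 0 and 0 CPM in Th1 and 80.5, 68.5, 74.5, 75.4 and 73.2 CPM in Tfh5, so all of its Th1 counts came from replicate 2. Its fitted difference of 787-fold rests on that library, without which the Th1 group is at 0 and the fitted value of 7118-fold depends on the prior count and is no bound. Cd33, a sialic acid-binding receptor known from myeloid cells, was 0, 0.0693, 0.0756, 0.0694 and 0.0761 CPM in Th1 and 24.9, 36.5, 40.9, 43.5 and 38.4 CPM in Tfh5 (554-fold, from 4 counts over the Th1 libraries). Ppp1r14c, an inhibitor of protein phosphatase 1, had no count in Th1 and 13, 10.9, 11.4, 10.9 and 9.94 CPM in Tfh5, which makes it at least 265-fold higher when the Th1 group is set to a floor of 3 counts in all. Gja5, the gap junction protein connexin 40, had 1 count in Th1, in replicate 2, and 1345 in Tfh5, a ratio of 1748 (313 to 69075), and Rasgrp3, a RAS activator, had 3 and 1417 counts, a ratio of 614 (209.6 to 2979), both with 95% counting intervals.

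At the other end, Gcnt4, a glycosyltransferase, was 12.2, 11.4, 10.7, 19.6 and 9.75 CPM in Th1 and had no count in Tfh5, at least 234-fold lower when the Tfh5 group is set to a floor of 3 counts in all. Ifi211, of the interferon-induced HIN-200 family, was 8.73, 13.5, 8.32, 10.5 and 10.3 CPM in Th1 and also without a count in Tfh5, at least 188-fold lower. Stra6, the receptor through which cells take up retinol, was 85, 94.9, 72.7, 69.4 and 58.4 CPM in Th1 and 0.0952, 0.102, 0.0944, 0 and 0.0747 CPM in Tfh5 (914-fold lower, log2 -9.84 ± 0.31). Chl1, an adhesion molecule known from neurons, was 148, 199.8, 210.05, 211 and 187 CPM in Th1 and 0.571, 0.102, 0.189, 0 and 0.149 CPM in Tfh5 (905-fold lower, and 1553-fold without Tfh5 replicate 1). Mt3, a metallothionein, was 47.5 ± 8.84 CPM in Th1 and 0 to 0.204 CPM in Tfh5 (569.5-fold lower, and 858-fold or 869-fold without Tfh5 replicate 1 or 2). Onecut2, a homeodomain factor, was 51.4 ± 5.73 CPM in Th1 and 0 to 0.224 CPM in Tfh5 (508-fold lower, and 875-fold without Tfh5 replicate 5). Stra6 and Mt3 had 4 counts each over the Tfh5 libraries, and Onecut2 had 5, so the size of their folds is uncertain. Fbn1, which encodes fibrillin-1, had 1054 counts in Th1 and 1 in Tfh5, in replicate 3, a ratio of 811 (145 to 32071) with its 95% counting interval. By difference in CPM, which also grows with transcript length and level, the losses in Ly6a (4254 ± 237 CPM in Th1, 1072 ± 156 CPM in Tfh5) and Vim, which encodes vimentin (3488 ± 158 and 887 ± 139 CPM), were among the largest.

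Markers of other cell types were checked in the same libraries. Of the 9 tested markers of monocytes, macrophages and dendritic cells, 5 were lower, 2 higher and 2 did not pass (median log2 -3.46, or -2.74 with the 2 genes without a Tfh5 count set to their bound), and the summed level of the whole list was 251 to 317 CPM in Th1 and 14.9 to 22.3 CPM in Tfh5. Most of that sum in Th1 was Cd74, the MHC class II invariant chain, at 214, 167, 173, 156 and 164 CPM in Th1 and 7.71, 5.61, 6.23, 5.98 and 8.67 CPM in Tfh5 (25.4-fold lower), and H2-Ab1, a class II chain, at 75.9 ± 7.09 and 3.93 ± 0.917 CPM (19.2-fold lower). The myeloid genes Lyz2, Cd14 and Csf1r, picked after their values were seen, were near 0 in both groups. Lyz2 was at 0 to 0.0694 CPM in Th1 and had no count in Tfh5. Cd14 was at 0.416 to 0.685 and 0 to 0.571 CPM, and Csf1r at 0 to 0.139 and 0 to 0.475 CPM. The 2 members of the list that were higher in Tfh5 were both at least 2-fold higher, so Lyz2, Cd14 and Csf1r do not stand for the whole list. Log2 fold changes in this list ran from -8.24 to 3.91. Of 11 B cell markers 3 were lower, 2 higher and 6 did not pass, with a summed level of 75.2 to 83.8 CPM in Th1 and 199 to 243 CPM in Tfh5. Ighm was 41.1 ± 2.97 CPM in Th1 and 211 ± 17.1 CPM in Tfh5 (5.13-fold higher) and Ebf1 29.3 ± 3.64 and 0.526 ± 0.442 CPM (57.7-fold lower), while Cd79a stood at 0.44 ± 0.399 and 0.672 ± 0.35 CPM. For CD8 and NK cells 1 of 6 tested markers was higher and 2 were lower, each by at least 2-fold, and 3 did not pass. Their log2 fold changes ran from -5.49 to 2.14. The summed level of this list was similar in the groups (67.7 to 118 CPM in Th1 and 72.8 to 119 CPM in Tfh5). Within the list, Cd8a had 34 counts over all Th1 libraries and 2 over all Tfh5 libraries. Of 4 tested γδ T cell markers 2 were higher (summed level 5.37 to 9.29 CPM in Th1 and 7.77 to 17.1 CPM in Tfh5). Trdc, the constant region of the γδ T cell receptor, was 5.49, 5.89, 4.01, 7.84 and 4.49 CPM in Th1 and 14.1, 11, 12.6, 14.4 and 6.58 CPM in Tfh5, with overlapping libraries (2.1-fold higher, edgeR adjusted p = 2.72e-04), and 53.5 ± 19.3 CPM in TfhA. The part of any such cells in the differences given above was not tested.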

How the data were processed

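RNA was sequenced from 14 cultured mouse CD4 T cell samples, of which 5 Tfh5 and 5 Th1 libraries are compared here and 4 TfhA libraries share the estimate of spread. The deposited table holds whole-number read counts per gene, made by the authors. The submitters' processing notes name STAR 2.7.2b, featureCounts 1.6.4 and mm10, while the sources used here do not state strand or multi-mapping settings. The deposited counts cover 27179 gene identifiers, of which 25275 matched a RefSeq symbol (GRCm38.p6), and identifiers without one held 1.91% of counts.

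Counts were tested with edgeR 4.0.16 in R 4.3.3: low-count filter (13075 genes kept), TMM scaling, quasi-likelihood test of Tfh5 minus Th1 in 1 fit over the 3 groups, and Benjamini-Hochberg adjustment. The scripts were tested on simulated data. Total counts per library (9766313 to 16108059) set the precision of low genes, and counting intervals and floors cover counting error only. Alternatives were DESeq2 1.42.0, other scalings and filters, thinning, the replicate block and leaving out libraries.

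The members, gene lists and tests were chosen with earlier results of these data known. Genes were named by rule: a fixed panel, the 10 highest and 10 lowest fold changes (at least 10 CPM in a group, no overlap), the 6 highest and 6 lowest differences in CPM, up to 4 passed genes per list (at least 5 CPM) and the largest against its list's direction. Named outside that rule, after their values were seen, were Ahrr, Bambi, Bst2, Cd14, Cd3e, Cd4, Cd79a, Cd8a, Chac1, Csf1r, Cyp1a1, Entpd1, Gbp7, Herpud1, Ifit1, Ifit2, Ifit3, Ifit1bl1, Ifngr1, Ikzf3, Il22, Il6ra, Irf1, Ltbp3, Lyz2, Mcm6, Mki67, Nqo1, Oasl1, Runx3, Samd9l, Skil, Slc1a4, Smad3, Tgfb1, Tgfb3, Tgfbr1, Tgfbr2, Tgfbr3 and Tiparp. Promoter windows of 300 bases (RefSeq, GRCm38.p6, 32851 windows of 27025 genes) were searched for 8 motifs on both strands. The labels do not say whether replicate numbers pair the samples, so the main fit did not pair them and the block is an alternative. A few genes of the lists enter the counts but are not reported here.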

Additional observations from a re-analysis of the deposited data

Results flagged for a closer look

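Of 352 tests of a group of 5 libraries, over the 172 named genes and 4 library measures, 28 had 1 library standing apart from the other 4. For continuous values chance alone gives about 1 in 20 groups. That rate does not hold for genes near 0, where very few counts are enough for a flag. The flags of Cd70, Cxcl11, Fbn1 and Gja5 below rest on 1 count each. Levels are in CPM, and the range of the other 4 libraries is in brackets. Th1 replicate 1 stood above the rest of its group for Batf3 at 175 (96.6 to 111), Ccnd3 at 559.6 (465 to 482) and Ccr7 at 979 (724 to 772). Th1 replicate 1 stood above the rest of its group for Irf8 at 408 (296 to 306). Th1 replicate 5 stood below the rest of its group for Ccr8 at 6.02 (8.98 to 10.2). Th1 replicate 1 stood below the rest of its group for Cd33 at 0 (0.0693 to 0.0761), Klrk1 at 29.7 (43.2 to 44.7) and mt-Nd1 at 5476 (7293 to 7791). Th1 replicate 1 stood below the rest of its group for Pparg at 13.2 (15.3 to 15.7) and Sc5d at 90.1 (117 to 123). Tfh5 replicate 3 stood above the rest of its group for Cd70 at 0.0944 (all 0), Cxcl11 at 0.0944 (all 0) and Fbn1 at 0.0944 (all 0). Tfh5 replicate 4 stood below the rest of its group for Daw1 at 70.5 (94.3 to 101), Rasgrp3 at 19.7 (26.7 to 28.2) and Stra6 at 0 (0.0747 to 0.102). Tfh5 replicate 1 stood below the rest of its group for Ebi3 at 0.0952 (0.408 to 0.598), Rora at 28.3 (77.0 to 114) and Scd2 at 275 (404 to 472). Tfh5 replicate 1 stood below the rest of its group for Slc2a1 at 29.8 (43.1 to 46.3) and the number of genes at 1 CPM or more at 11798 (11891 to 11907). Th1 replicate 2 stood above the rest of its group for Gja5 at 0.0693 (all 0), Iglon5 at 0.416 (all 0) and Il17a at 0.971 (0 to 0.0756). Th1 replicate 2 stood above the rest of its group for Il17f at 8.60 (0.624 to 0.907) and Ubash3b at 98.9 (66.8 to 72.5). Th1 replicate 4 stood above the rest of its group for Postn at 0.139 (all 0). Tfh5 replicate 5 stood above the rest of its group for the total count at 13316633 (9766313 to 10635657). None of these genes reversed its direction in any fit that left out a library, and the cause was not tested.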

How the results depend on the processing

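Of the 172 named genes, none reversed under any of the alternatives. DESeq2 passed 8538 genes against 8440, sharing 8384 in the same direction, and leaving out 1 library at a time passed 8031 to 8404. With at least 10 CPM required in a group, which leaves fewer genes to test, 979 genes were at least 2-fold higher and 1115 at least 2-fold lower, against 1653 and 1994. Other scalings and filters moved the median log2 fold change of all genes only between -0.04 and 0.02. The share of counts in the 50 most abundant genes differed with an exact permutation p of 0.0397, which ranged from 0.0238 to 0.0794 when 1 library was left out and was 0.0571 without Tfh5 replicate 1 and Th1 replicate 2, and the cause was not tested. The median log2 fold change of the B cell markers was 0.23 as reported. It turned to -0.13 with at least 10 CPM in a group, to a range of -0.31 (without Tfh5 replicate 1) to 0.33 (without Tfh5 replicate 4) when 1 library was left out, to -0.11 without Tfh5 replicate 1 and Th1 replicate 2, to -0.10 with only the Tfh5 and Th1 libraries, with or without the block, and to -0.13 without replicate 1 of both groups, a setting added after seeing the data, and was 0.44 after thinning. The cause was not tested. Among the 172 genes named by rule, Cdkn2c, Stat5b, mt-Nd5 and Foxp3 are those whose call changed under an alternative. The genes named outside that rule were not checked in this way.

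With the replicate number as a replicate block, 8285 genes passed over 14 libraries and 8055 over the 10 libraries compared. Cdkn2c then lost its call (edgeR adjusted p = 0.0559 and 0.0594) and Foxp3 gained one (0.00915 and 0.0154). Deviations of same-numbered Tfh5 and Th1 libraries correlated by -0.0451 to 0.0533 over 5 pairs, and those of different numbers by -0.0701 to 0.0692. Of the 5 Tfh5 libraries, 2 correlated best with their own number. These correlations are taken over all genes and cannot show whether same-numbered samples share a mouse, a culture or a day. The labels do not say what the number stands for.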
